A study of Mus musculus with 22 samples.

Results

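The Tribbles genes Trib1, Trib2 and Trib3 were examined for binding of C/EBP beta and CREB1 in mpkCCD cells (clone 11), a line from the cortical collecting duct of the mouse kidney. The 3 genes were chosen by name out of 21631 protein-coding genes of the autosomes and X, and a chromatin immunoprecipitation (ChIP-seq) peak was counted for a gene when no other protein-coding gene was nearer to the centre of the peak. The choice was made with the peaks known, Trib1 being the nearest gene of several C/EBP beta peaks, so the counts below describe the genes and are not tests of them. In all, 6 regions of the C/EBP beta list after dDAVP and 2 peaks of the C/EBP beta list after vehicle belonged to a Tribbles gene, and none of the CREB1 peaks did.

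All cells were grown to confluence on permeable supports, kept for 24 h in medium without serum or hormones, and then given 0.1 nM dDAVP, an agonist of the vasopressin V2 receptor, or its vehicle for 30 min. The samples were 2 of C/EBP beta after dDAVP, 2 of C/EBP beta after vehicle, 4 of CREB1 after dDAVP, 4 of CREB1 after vehicle and 10 input libraries without antibody. All came from 1 clone of 1 line, and separate cultures are named by an experiment number alone. Each antibody and treatment had 1 deposited peak list, with 2401 dDAVP regions and 209 vehicle peaks of C/EBP beta, and 406 dDAVP peaks and 785 vehicle peaks of CREB1. No replicate error can be given for any value, read depth is unknown, and a site without a call may still be bound.

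Tribbles proteins are pseudokinases: they keep the fold of a protein kinase but act mainly as scaffolds. Trib1 and Trib2 bring the ubiquitin ligase COP1 to the transcription factor C/EBP alpha, which is then degraded. Trib3 is a known target of the stress factors ATF4 and CHOP (gene Ddit3) and binds the kinase AKT. C/EBP beta is a leucine zipper factor that can pair with ATF4 and CHOP, and CREB1 is the activator that protein kinase A phosphorylates when cAMP rises.

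Among the Tribbles genes, Trib3 has a C/EBP beta region over its start site that could be read as sequence. The 250 bases upstream of the start of Trib3 (RefSeq, GRCm38.p6, minus strand, chr2:152344061-152344310) are shown because the C/EBP beta region after dDAVP covered the 155 bases next to the start. Capitals mark, in order, TGACG, the core of the cAMP response element (CRE), the sequence TGGTGCAAT (a match of TGNTGCAAT) and TGACG on the other strand (here CGTCA). The first TGACG lies outside the C/EBP beta region, and the other marked matches lie inside it.

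Trib3, upstream: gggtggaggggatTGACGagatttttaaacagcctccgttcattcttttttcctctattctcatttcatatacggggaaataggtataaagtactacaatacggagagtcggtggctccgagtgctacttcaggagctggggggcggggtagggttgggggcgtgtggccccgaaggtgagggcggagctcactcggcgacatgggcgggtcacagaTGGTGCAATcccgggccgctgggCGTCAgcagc

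A match of the core TGATGNAA, the sequence at which a C/EBP protein and ATF4 bind as a pair, lay 14 to 21 bases after the start, on the other strand. It is given on that strand, in capitals, with 10 flanking bases on each side, beside the TGNTGCAAT match of Trib3 and the matches in 5 genes of the ATF4 and CHOP pathway whose own promoter windows overlapped a C/EBP beta region after dDAVP. Lines are RefSeq GRCm38.p6, 5′ to 3′, and capitals mark the match.

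Trib3, chr2:152344029-152344056, + strand: cccgcccggcTGATGTAAacctgagcta

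Trib3, chr2:152344075-152344103, - strand: gggtcacagaTGGTGCAATcccgggccgc

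Psat1, chr19:15925177-15925205, - strand: cgcgggtggcTGGTGCAATcccctgctct

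Chac1, chr2:119351039-119351066, - strand: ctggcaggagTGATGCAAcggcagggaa

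Atf3, chr1:191183426-191183453, + strand: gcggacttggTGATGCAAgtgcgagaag

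Vldlr, chr19:27216810-27216837, - strand: ctaggagcgcTGATGCAActattgctgc

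Slc7a11, chr3:50443662-50443689, - strand: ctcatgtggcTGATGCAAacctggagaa

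Trib1, on chromosome 15 from 59648654 to 59657099 (mm10), had the most C/EBP beta sites of the family. Its gene end with the lower coordinate and a site 127 kb past its other end were called after both treatments. After dDAVP 3 further regions were listed, 1 of them beside the distal site. The order of the main sites by the authors' deposited score differed between the lists: the distal site scored higher than the gene end after dDAVP, 2573 against 1714, and lower than the gene end after vehicle, 216 against 441. By the peak names, the score in each list is that of replicate 1 alone, so how far this order varies between replicates is unknown. The score has no stated scale, so it was used to order peaks within a list alone.

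The region at the gene end spanned 415 bp after dDAVP, from 59648363 to 59648777. Its centre lay 84 bp outside the end of Trib1 with the lower coordinate, and 124 bp of it lay inside the gene. It ranked 38 of 2401 by score and was wider than 95.2% of the list. The vehicle peak at the same place spanned 266 bp, from 59648410 to 59648675, all of it inside the dDAVP region, and ranked 9 of 209. Among C/EBP beta peaks within 1000 bp of an end of their gene, the Trib1 site had rank 12 of 459 after dDAVP and rank 3 of 49 after vehicle.

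The distal site was deposited after dDAVP as 2 regions, from 59783859 to 59784054 (196 bp) and from 59784197 to 59784689 (493 bp), with 142 bp between them. Both carried the name and score of 1 peak of replicate 1, so the 5 Trib1 regions stand for 4 peaks of that replicate. Of the 2399 names in the list, 2 were carried by 2 regions and the Trib1 site was 1 of them. The shared score of 2573 ranked 9 of 2401, and 10 regions scored as high or higher. Among the 167 dDAVP regions over 100 kb from their nearest protein-coding gene, 6.96% of the list, the Trib1 distal site had the highest score.

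After vehicle the distal site was 1 peak of 309 bp, from 59784253 to 59784561, inside the longer dDAVP region. It ranked 45 of 209, and 4 of the 14 vehicle peaks over 100 kb from their gene. Set against the 209 sites found in both C/EBP beta lists, the distal site ranked 9 after dDAVP and 45 after vehicle, and the gene end ranked 36 after dDAVP and 9 after vehicle.

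The other Trib1 regions were called after dDAVP alone, as were 2192 of all 2401 regions of that list. They scored below the median of the list, 197. A region of 234 bp inside Trib1, from 59652862 to 59653095, scored 172 and ranked 1331 of 2401. A region of 227 bp lay 166 kb past the end with the higher coordinate, from 59823212 to 59823438, and scored 178. Whether these regions lie in an exon or an intron was not determined, because the gene table used gives gene ends alone.

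**Figure D1:**
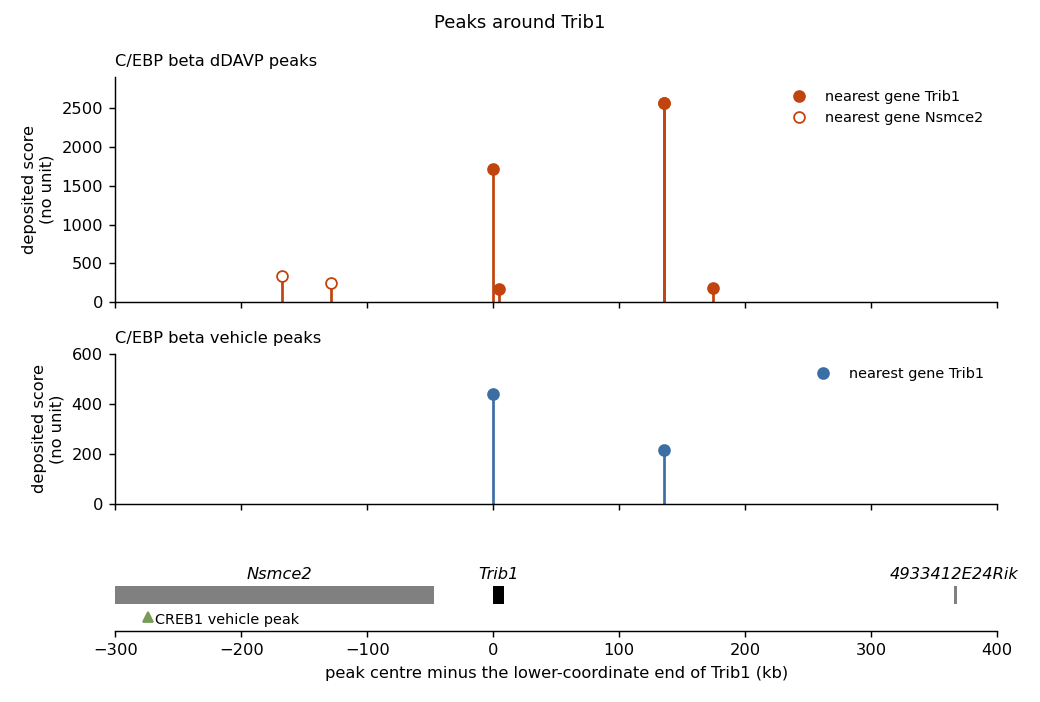
Distance of each peak centre from the lower-coordinate end of Trib1 (horizontal, kb) against the deposited score (vertical, no unit, a separate scale in each panel), for C/EBP beta after dDAVP (top) and vehicle (middle), with genes and the CREB1 vehicle peak in the lowest panel. Filled points are peaks nearest to Trib1 and open points are peaks inside Nsmce2; the 2 regions of the distal site, both at 2573, fall on one another at this scale.

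The distal regions belong to Trib1 by distance alone, in a gap of 358 kb between Trib1 and 4933412E24Rik. Taking noncoding genes into account, the 3 regions beyond the gene lay nearer to long noncoding RNA genes: those at the distal site 4460.5 and 3974 bp from Gm19510, and the last region 92 bp from Gm36819. That last region came closest to being counted for another protein-coding gene, at 166 kb from Trib1 and 192 kb from 4933412E24Rik. On the lower-coordinate side, the first C/EBP beta regions that did not count for Trib1 lay inside Nsmce2, a SUMO ligase gene, 129 and 168 kb away with scores of 245 and 338. Both were called after dDAVP alone, as were 2192 of all 2401 dDAVP regions. On the higher-coordinate side no other C/EBP beta or CREB1 peak lay within 1 Mb.

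Trib3, on the minus strand of chromosome 2 from 152337425 to 152344060, had 1 C/EBP beta region after dDAVP and none after vehicle. It spanned 294 bp, from 152343922 to 152344215, with the centre 8.5 bp upstream of the start of the gene and 139 bp inside it. Only 0.106% of all genes had a C/EBP beta region after dDAVP closer to a gene end. The score was 423, rank 510 of 2401, above 78.7% of the list. Among dDAVP regions at a gene end it had rank 122 of 459.

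A vehicle peak was not called at Trib3, and the closest one lay 363 kb away, inside Fam110a. Of the 2192 dDAVP regions without a vehicle peak, 305 scored higher than the Trib3 region, and of the 209 with one, 5 scored lower. Rbck1, a ubiquitin ligase gene 4761 bp away, and Nrsn2, 24694 bp away on the other side, had no peak in any list.

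**Figure D2:**
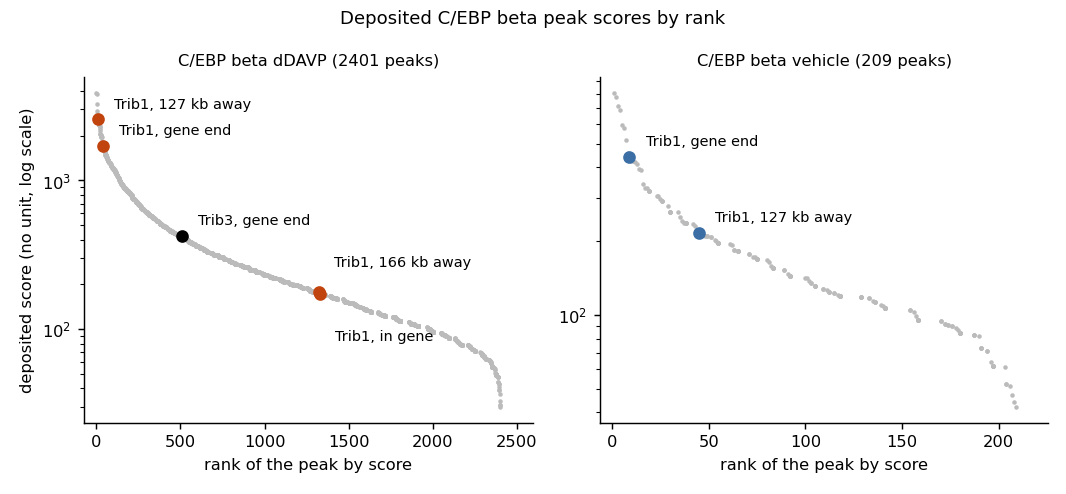
Deposited score, from replicate 1 alone (vertical, log scale, no unit), against rank by score for each C/EBP beta region after dDAVP (left) and vehicle (right). Grey points are all regions, coloured points Trib1 and the black point Trib3; the Trib1 distal site and gene end have ranks 9 and 38 after dDAVP and, in the other order, 45 and 9 after vehicle.

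The promoter window of Trib3, from 250 bases before to 50 after the start, held 3 matches of the 5 motifs searched on both strands. These were TGATGNAA once and TGACG at 2 places, the farther of which from the start lay outside the C/EBP beta region. TTNNGCAA and TTGCGCAA, forms of the C/EBP site of which the first includes the second, and TGACGTCA, the full CRE, which holds TGACG, were not found. Among 21045 windows of protein-coding genes TGATGNAA was in 3.45%, and among the 296 that overlapped a C/EBP beta region after dDAVP in 8.11%. TTNNGCAA, which Trib3 lacks, was in 10.3% of all windows and 36.5% of those under such a region. TGACG was in 23.8% of all windows, 42.2% of those under a C/EBP beta region and 90.0% of those under a CREB1 peak after dDAVP.

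TGNTGCAAT was added after the Trib3 sequence was read, and a site can match both it and TGATGNAA. It was in 0.608% of all windows and in 11 of the 296 under a C/EBP beta region (3.72%). The 11 include Trib3, whose match was known when the motif was added, so these shares are no independent evidence. The match in Trib3 lay 33 to 25 bases upstream of the start, inside the region called. Psat1, an enzyme of serine synthesis, held a match of the same letters. Of the 23 genes in the ATF4 and CHOP list, 21 had a window, and in 6 of these a window overlapped a C/EBP beta region after dDAVP. Of all 17274 protein-coding genes with a window, 275 (1.59%) had such an overlap. Of those 6 genes, 4 held TGATGNAA, 1 held TGNTGCAAT and Ddit3 held neither. Among the 296 windows under a C/EBP beta region, TGATGNAA was in 8.11%. The list was one of the ATF4 pathway and was drawn up with these peaks known, so these matches are no independent evidence. Vldlr and Slc7a11 were named for these matches, after their values were seen. Slc7a11 had 2 matches, of which 1 is given, and its window lay at a start away from the ends in the gene table, the closest end being 55365 bp from a region.

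Trib2, on the minus strand of chromosome 12 from 15791725 to 15816962, had no peak in any list. The closest C/EBP beta region after dDAVP lay 1034 kb away, nearest to E2f6, and the closest C/EBP beta vehicle peak 3355 kb away, nearest to Cyria. The closest CREB1 peaks, nearest to Nol10, lay 1531 kb away after dDAVP and 1531 kb away after vehicle. Its neighbours Lratd1, 1640 kb away, and Lpin1, 719 kb away, had no peak either. The promoter window of Trib2 held no match of the 6 motifs. A gene with no peak was the usual case, since 19019 of 21631 genes had none in the 4 lists, and of the 252 genes with as much genome nearest to them as Trib2 (1204 kb) or more, 195 had none.

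CREB1 was not called at any Tribbles gene, in either treatment. The closest CREB1 peak to Trib1 after dDAVP lay 16185 kb away, at Zc3h3, and after vehicle 274 kb away, inside Nsmce2. For Trib3 the closest CREB1 peaks lay 1729 kb away after dDAVP, nearest to Apmap, and 1397 kb away after vehicle, nearest to Mapre1. The medians over all genes were 1744 kb after dDAVP and 810 kb after vehicle, so the distances of Trib2 and Trib3 were near the first and above the second. Trib1 was farther than the median after dDAVP and closer after vehicle.

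**Figure D3:**
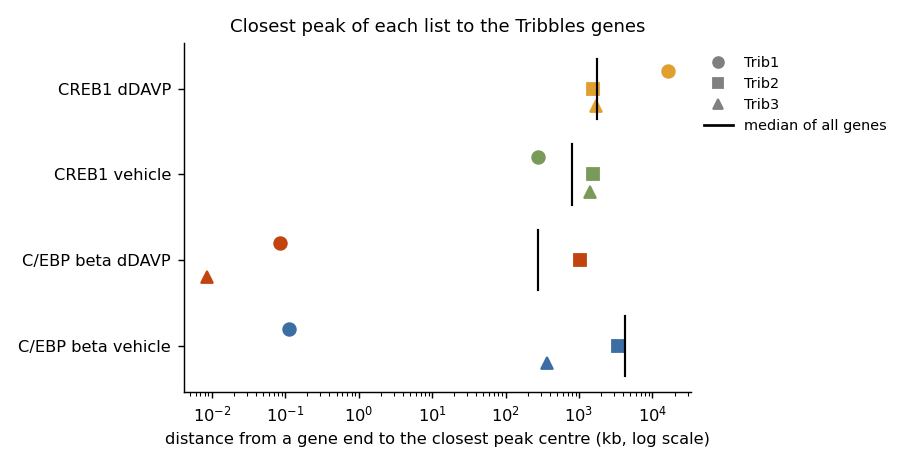
Distance from the nearer end of Trib1, Trib2 and Trib3 to the closest peak centre of each list (horizontal, kb, log scale); black bars are medians over all protein-coding genes. Trib1 and Trib3 have a C/EBP beta region within 0.1 kb after dDAVP, and Trib2 has no peak of any list within 1000 kb.

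Against all protein-coding genes, 8.97% had at least 1 C/EBP beta region after dDAVP as their own and 0.92% a C/EBP beta vehicle peak, while 1.85% had a CREB1 peak after dDAVP and 3.56% after vehicle. The rule used these peaks, so nothing is read from the 2 of 3 Tribbles genes with a C/EBP beta region after dDAVP. Of the 21631 genes, 9 had at least 5 C/EBP beta regions after dDAVP, among them Trib1, and 7 had at least 2 after vehicle. Myc, with 10 regions after dDAVP and 4 after vehicle, and Gm40363, with 6 and none, had more after dDAVP than Trib1; they were named after their counts were seen. With regions of 1 name counted once, Trib1 had 4 and 28 genes had at least as many.

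Genes differ in how much of the genome lies nearest to them, and for Trib1 this was 211 kb. It held 23.7 C/EBP beta regions per Mb after dDAVP, or 19.0 with regions of 1 name counted once, against 0.917 per Mb over all genes. The density was 15.2 per Mb with the span limited to 100 kb on each side of the gene, and 14.2 per Mb with the upper 50% of scores. Shorter spans can give a high density from few regions, and 506 genes had a higher one than Trib1, among them Trib3, with 46.8 per Mb from its 1 region, Cpt1a with 37.6 and BC035044 with 55.6. None of the 506 had a span as long as that of Trib1, which 2833 genes reached or passed, Trib1 included. The span of Trib1 itself set this limit and its peaks were known when it was chosen, so its place is a description alone. A region at a gene end together with one over 100 kb away was found at 3 genes, Trib1, Ahi1 and Slc1a4. The pattern was chosen with the Trib1 peaks known, so Trib1 met it in advance and its rarity was not tested. Ahi1 and Slc1a4 were named after their values were seen. In all, 455 genes had their own region at a gene end and 129 had one over 100 kb away.

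**Figure D4:**
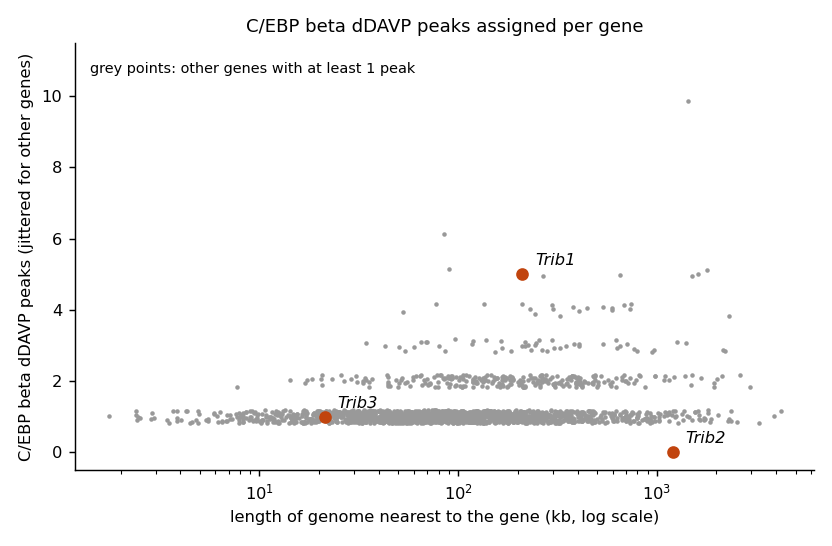
Length of genome nearest to each gene (horizontal, kb, log scale) against its number of C/EBP beta regions after dDAVP (vertical). Coloured points are Trib1 (5 regions, 211 kb), Trib2 (none, 1204 kb) and Trib3 (1 region, 21.4 kb); grey points are other genes with at least 1 region, shifted slightly up or down at random so that they can be told apart.

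No other gene had the counts of Trib1 in the 4 lists. By distance on log2 of the count plus 1, over the 4 lists, Cpt1a, BC035044, Tbl1xr1, Cd47 and Hes1 were the most alike, at 0.58 for the first 3 and 0.64 for the others. Cpt1a, the carnitine palmitoyltransferase of fatty acid oxidation, had 3 regions after dDAVP, with scores of 1962, 2444 and 83, and 2 after vehicle with 110 and 390, all inside the gene. BC035044 also had 3 and 2. Tbl1xr1, a corepressor subunit, had 5 and 1, all at least 89648.5 bp from the gene. Cd47, a cell surface signal against phagocytosis, and Hes1, a repressor downstream of Notch, had 4 and 1 each. The best region of Hes1 after dDAVP, with a score of 1148, lay 118792 bp from the gene. None of these 5 genes had a CREB1 peak of its own, or a C/EBP beta region of its own within 1000 bp of a gene end. The counts of Trib3 were shared by 1375 genes in all.

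Partners and targets of Tribbles proteins were looked at next, in a list of 27 genes. For this list and those that follow, a peak near a gene end was taken whichever gene it was nearest to. A C/EBP beta region after dDAVP lay within 5000 bp of an end of 4 of them (14.8%), where all genes gave 5.01%. A C/EBP beta vehicle peak lay near 1 (3.70%), where all genes gave 0.513%. The 4 were Atf4, Cebpb, Ddit3 and Foxo3, of which Foxo3 alone is absent from the ATF4 and CHOP list below. The vehicle peak was near Ddit3, also in both lists. This list and those that follow were drawn up with earlier results on these peaks known, so their counts are no independent evidence. CREB1 peaks were near 1 after dDAVP (3.70% against 2.67% of all genes) and 3 after vehicle (11.1% against 5.05%). The median distance to a C/EBP beta region after dDAVP was 192 kb, and 273 kb over all genes. Cop1, the ubiquitin ligase, had its closest such region 724732 bp away, and Cebpa, the degraded factor, 241223 bp away. Both are given for their role, outside the rule for named genes.

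Foxo3, a forkhead factor downstream of AKT, had a C/EBP beta region after dDAVP 1455 bp from a gene end with a score of 921, rank 158. CREB1 peaks lay 1107 bp from an end of Foxo3 after dDAVP and 1051 bp after vehicle. Map2k1, which encodes the kinase MEK1 bound by Tribbles proteins, had a CREB1 vehicle peak 97.5 bp from an end and a CREB1 dDAVP peak farther away, at 6471 bp. Cebpb, which encodes C/EBP beta itself, had a C/EBP beta region after dDAVP at 259 bp that scored 101. By the nearest-gene rule 4 such regions counted for Cebpb, the highest scoring at 69695.5 bp with 1376. Ddit3 had C/EBP beta sites 290.5 bp from an end after dDAVP and 277.5 bp after vehicle, with scores of 485 and 73. By the nearest-gene rule both counted for Mbd6, and the dDAVP region lay inside Mbd6.

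The ATF4 and CHOP pathway, through which Trib3 is known to be induced, was a list of 23 genes that shares Atf4, Ddit3 and Cebpb with the list above. Of these, 10 had a C/EBP beta region after dDAVP within 5000 bp (43.5%, all genes 5.01%) and 2 a C/EBP beta vehicle peak (8.70%, all genes 0.513%). CREB1 peaks were near 1 after dDAVP (4.35%, all genes 2.67%) and 2 after vehicle (8.70%, all genes 5.05%). The median distance to a C/EBP beta region after dDAVP was 15.1 kb, where all genes gave 273 kb. The list was drawn up with earlier results on these peaks known, so the count is no independent evidence.

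Within the pathway, the kinase gene Eif2ak3 (PERK) had a CREB1 vehicle peak 95 bp from an end and no C/EBP beta region within 5000 bp. Atf4 had a CREB1 vehicle peak at 22 bp and a C/EBP beta region after dDAVP at 958.5 bp that scored 141. The target genes Chac1, an enzyme that breaks down glutathione, and Atf3, a stress-induced repressor, had C/EBP beta regions after dDAVP at 194 and 31 bp with scores of 991 and 434. Chac1 also had a C/EBP beta vehicle peak, at 185 bp with a score of 95. Ppp1r15b, a subunit of the phosphatase that acts on eIF2 alpha, had a C/EBP beta region after dDAVP at 47 bp that scored 460. Its inducible counterpart Ppp1r15a had a CREB1 dDAVP peak at 24 bp and no C/EBP beta region within 5000 bp. Psat1 and Atf6, the sensor of unfolded proteins, had C/EBP beta regions after dDAVP at 137.5 and 132 bp that scored 61 and 230. The closest regions of the 10 pathway genes scored from 61 at Psat1 to 991 at Chac1. The Trib3 score of 423 lay within that wide range, nearest to the 434 of Atf3.

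Other pseudokinases were a list of 30 genes, of which 6 had a C/EBP beta region after dDAVP within 5000 bp (20.0%, all genes 5.01%) and none a C/EBP beta vehicle peak (all genes 0.513%). CREB1 peaks were near 1 gene after dDAVP (3.33%, all genes 2.67%) and 1 after vehicle (3.33%, all genes 5.05%), shares near those of all genes. The gene was Tex14 in both, 500 and 497.5 bp from an end, but by the nearest-gene rule these CREB1 peaks counted for another gene. The peak that did count for Tex14 was a C/EBP beta region after dDAVP inside the gene, with a score of 382 and over 5000 bp from an end. Stk40, a relative of the Tribbles proteins, had a C/EBP beta region after dDAVP 634.5 bp from an end with a score of 340. Irak3, an inhibitor of Toll-like receptor signalling, and its relative Irak2 had regions at 310.5 and 4396.5 bp with scores of 199 and 448. Nrbp2, Pxk and Nrbp1 had regions at 1155, 1729 and 3132 bp with scores of 209, 188 and 145. All 6 scores were below the 1714 and 2573 of the main Trib1 sites, but 98.4% of the whole list scored below 1714. Trib1 was chosen with its peaks known, so nothing is read from that order. Irak2 alone was above the 423 of Trib3, which itself was above 78.7% of the list.

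**Figure D5:**
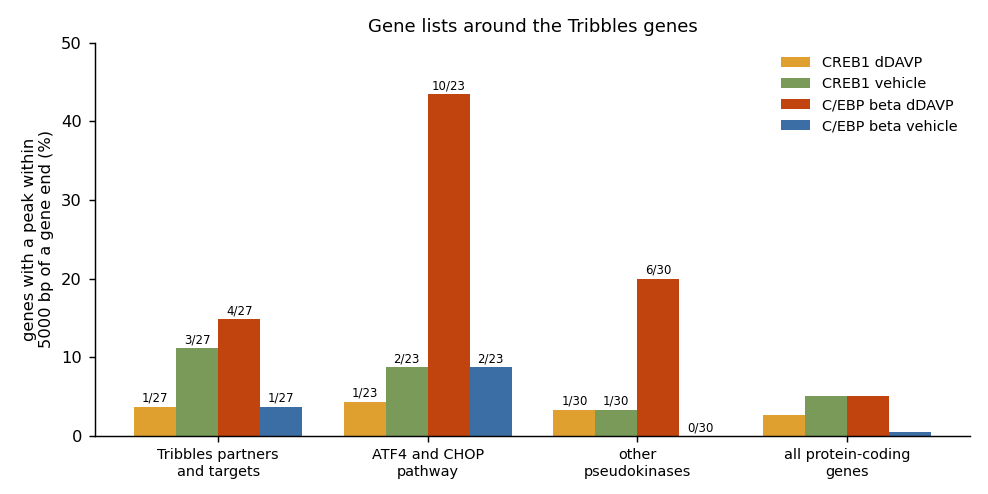
Share of genes with a peak within 5000 bp of a gene end (vertical, %) in each of the 3 gene lists and among all 21631 protein-coding genes, by peak list; figures over the bars give genes with a peak over genes in the list. C/EBP beta regions after dDAVP are near 10 of 23 ATF4 and CHOP genes, 4 of 27 partners and targets and 6 of 30 other pseudokinases.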

How the data were processed

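ChIP-seq peaks were deposited as 4 lists, 1 for each group of immunoprecipitated samples. The submitters' processing notes name mm10 as the build and MACS2, BWA, bedtools and SAMtools as tools, with no version or role; the way replicates were combined is not stated. The C/EBP beta score is the authors' value per peak of replicate 1, per the names in the deposited lists, which also give a bandwidth of 300 and a q-value of 0.01; CREB1 lists have positions alone. The other values the authors deposited are peak starts and ends, here counted from 1.

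Genes came from a RefSeq table of GRCm38.p6 and start sites from the RefSeq promoter table (windows for 17274 protein-coding genes, including 2 of the 3 Tribbles genes, Trib2 and Trib3). Each peak centre was assigned to the nearest gene body with Python 3.11.15 and pandas 2.3.3, tested on simulated peaks. Overlap meant at least 1 bp. The groups came from sample titles. No test over replicates could be made, since no replicate values were used here.

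Members and lists were chosen with earlier results of these data known. The genes named were the Tribbles genes and their neighbours, up to 8 genes per list with a peak within 5000 bp, closest first, and the 5 genes most like Trib1. Alternatives were another assignment, distance, overlap, score minimum and strand.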

Additional observations from a re-analysis of the deposited data

How the results depend on the processing

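Of 74 alternative values for 18 results, 61 stayed within 1.5 times the value reported and 13 did not. The 61 include every alternative of the 9 results with a count of 0, so they are no measure of stability. For Trib1, counting all annotated genes left 2 of 5 C/EBP beta regions after dDAVP and 1 of 2 after vehicle, since noncoding genes lay nearer to the distal sites. A limit of 100000 bp also left 2 after dDAVP and 1 after vehicle, and the upper 50% of scores left 3 after dDAVP. The density at Trib1 was 15.2 per Mb within 100000 bp of the gene and 14.2 in the upper 50% of scores. For partners and targets, the count of genes near a C/EBP beta region after dDAVP was 8 at 50000 bp (18.9% of all genes) and 2 in the upper 50% of scores (2.73% of all genes). It was 6 for the ATF4 and CHOP list in the upper 50% of scores, and 2 at 1000 bp (2.51% of all genes) and 12 at 50000 bp for other pseudokinases. On the strand of the gene alone, 1 motif match remained in the windows of Trib2 and Trib3, in place of 3. The 9 results with a count of 0 stayed at 0 in each alternative run. A distance limit, a score minimum, noncoding genes or merged names can only lower a count, so those runs could not change them. Counting regions of 1 name once, chosen after the data were seen, gave 4 regions at Trib1, and TGNTGCAAT, added likewise, gave 4 motif matches. For the nearest gene start, both ends were used for Trib1 and other genes without a window. No paired analysis was possible because each group had 1 peak list, and for the same reason no replicate could be left out.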
